A study of Mus musculus with 3 samples.

Results

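The genes described here are the collagens and the small leucine-rich proteoglycans (SLRPs) measured in mouse prelimbic cortex (PrL). They were chosen by name, as protein-coding genes named Col with a type and a chain number, together with Dcn, Lum, Ogn, Omd, Fmod, Bgn, Aspn, Prelp, Podn and Kera. Of the 54 genes that matched, 45 had a mean of at least 0.1 FPKM (fragments scaled by gene length and by the mapped reads of the library) over 3 libraries and are the members. They stand among 20203 genes of all kinds that reached this limit, out of 54532 genes in the table. The members comprised 10 fibrillar collagens, 6 basement membrane collagens, 20 other collagens and 9 SLRPs.

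The study asked which transcripts differed in the PrL of stressed mice after overexpression of the circular RNA circFKBP8(5S,6), or of cFKBP8, the protein it encodes. RNA was sequenced in 1 library for each of 3 groups of male C57BL/6J mice, which were 6 to 8 weeks old when purchased, before acclimatization, injection and stress. In the oe-circ group, AAV/9 with the construct rAAV-hSyn-circFKBP8-bGH-polyA-CMV-EGFP was injected into the PrL on both sides. In the oe-pep group an hSyn vector carried the peptide with a 3×Flag tag, joined by P2A to EGFP and followed by hGH-polyA, and in the vehicle group the construct was rAAV-hSyn-bGH-polyA-CMV-EGFP. Chronic unpredictable mild stress (CUMS) was applied to all 3 groups for 5 weeks, so no library came from unstressed mice. The hSyn promoter drives a transgene in neurons, whereas EGFP was driven by CMV in the oe-circ and vehicle constructs. The overexpressed RNAs were not analysed here and so do not check the labels. The number of mice behind a library is not given in the sources used here. With 1 library per group, no difference below has a replicate check, and no P value was computed.

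Collagens are proteins in which 3 chains wind into a triple helix, and this helix needs glycine in a fixed position of each triplet of residues. Fibrillar collagens such as types I, III and V assemble into the cables of connective tissue, while type IV forms the sheet-like network of basement membranes around blood vessels. SLRPs are proteins built of leucine-rich repeats, most of which bind collagen fibrils and influence their assembly. In the brain, fibrillar collagens and SLRPs are known mainly from the fibroblasts of the meninges and of large vessels, and type IV collagen from the vessel wall.

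The repeat that sets collagens apart can be read in the coding sequence. Stretches of the coding exons are printed below for members on which the results turn, from the GENCODE vM21 transcripts of mm10, with each glycine codon (GGN) that opens a triplet of the repeat in capitals (in Ogn, which has no repeat, each GGN codon) and codons counted from 1 at the start codon. They cover codons 168 to 191 of Col1a1 (chromosome 11), 527 to 550 of Col11a1 (chromosome 3), 256 to 279 of Col6a1 (chromosome 10), 212 to 237 of Col4a1 (chromosome 8) and 150 to 173 of the SLRP gene Ogn (chromosome 13).
Col1a1: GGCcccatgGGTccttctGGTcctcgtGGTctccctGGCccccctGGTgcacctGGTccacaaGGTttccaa
Col11a1: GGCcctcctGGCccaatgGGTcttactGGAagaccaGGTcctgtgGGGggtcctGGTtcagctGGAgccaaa
Col6a1: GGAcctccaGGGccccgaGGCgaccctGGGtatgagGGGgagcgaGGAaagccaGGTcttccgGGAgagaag
Col4a1: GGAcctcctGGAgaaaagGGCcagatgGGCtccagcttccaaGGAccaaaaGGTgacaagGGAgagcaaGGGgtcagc
Ogn: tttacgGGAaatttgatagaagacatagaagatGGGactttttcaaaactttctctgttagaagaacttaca

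In the 4 collagens glycine opened every triplet shown, with 1 interruption of 2 extra codons in Col4a1, whereas the Ogn stretch held 2 glycine codons and no such pattern. The classes differed in how long this pattern ran without a break. The longest uninterrupted run had 217 to 344 triplets in the 10 fibrillar members (median 338), 30 to 66 in the 6 basement membrane members (median 41) and 23 to 113 in the 20 other collagens (median 48.5). Basement membrane members held 9 to 23 separate runs of at least 6 triplets each, against 2 or 3 in fibrillar members, and no SLRP held any. The coding GC content had a median of 61.9% in fibrillar, 59.1% in basement membrane and 59.0% in other collagens, and 47.6% in SLRPs.

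The reads assigned to genes numbered 14413544 in the oe-circ, 16410635 in the oe-pep and 18084058 in the vehicle library. The members took 4712, 5478 and 6393 of these reads, or 0.0327%, 0.0334% and 0.0354%. Collagen and SLRP transcripts were thus a very small part of the PrL RNA, and 1 read in 1 kilobase was worth 0.0687 FPKM in the oe-circ, 0.0597 in the oe-pep and 0.0540 in the vehicle library. All intervals below are exact 95% intervals of the reads, which cover counting error and not the variation between mice, and they compare libraries rather than groups.

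Markers of the labelled tissue were present in all libraries. The 10 cortical excitatory neuron markers summed to 448 FPKM in the oe-circ, 402 in the oe-pep and 371 in the vehicle library. The libraries also differed in markers of nearby tissue and of other cell types. All 9 striatal markers were more than 2-fold lower in the oe-circ than in the vehicle library, with sums of 195 FPKM in oe-circ, 510 in oe-pep and 617 in vehicle, and all 8 basal forebrain and septal markers were lower too, with sums of 5.07, 10.4 and 22.0 FPKM in the same 3 libraries. In oe-pep, 3 of 4 ependymal markers were more than 2-fold higher than in vehicle, with sums of 5.85 FPKM in oe-circ, 12.7 in oe-pep and 4.32 in vehicle. The 6 oligodendrocyte markers (732, 1279 and 861 FPKM), the 5 blood markers (311, 403 and 275 FPKM) and the 5 choroid plexus markers tested (9.56, 21.3 and 9.89 FPKM) also had their highest sum in oe-pep, in the same order of libraries. Of these lists, choroid plexus alone held genes at 0, Kcne2 in oe-circ and Kcnj13 in vehicle. Its tested genes were also mixed in direction. Against vehicle, Clic6 was more than 2-fold lower in both oe-circ and oe-pep, Folr1 more than 2-fold higher in both, and Ttr more than 2-fold higher in oe-pep. The 4 genes given as marks of collagen-producing cells, Col1a1, Col1a2, Dcn and Ogn, were detected in each library. In bulk tissue, fewer cells of a type and less RNA per cell cannot be told apart.

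The levels were low and uneven. Every member had at least 1 read in each library, 18 had a mean of at least 1 FPKM, and 40 had a mean of at least 20 reads. The highest fibrillar member by mean FPKM was Col11a2, the highest basement membrane member Col4a2, the highest other collagen Col6a1 and the highest SLRP Prelp. Summed over the class, other collagens had 17.8 FPKM in the oe-circ, 21.1 in the oe-pep and 24.1 in the vehicle library. SLRPs had 18.5 FPKM in oe-circ, 14.2 in oe-pep and 12.5 in vehicle, the only class of the 4 with its highest sum in oe-circ. Basement membrane members had 10.2, 10.3 and 11.0 FPKM, and fibrillar members 6.01, 6.94 and 6.35 FPKM, in the oe-circ, oe-pep and vehicle libraries. The sum over all 45 members was nearly level, at 52.5 FPKM in oe-circ, 52.5 in oe-pep and 53.9 in vehicle. Within it, the SLRP sum and the sum of other collagens differed in opposite directions. Single genes weighed heavily in both sums. Col6a1 alone had 4.13 FPKM in oe-circ and 7.67 in vehicle. Without Ogn and Fmod, a choice made after their values were seen, the SLRPs summed to 10.6 FPKM in oe-circ, 9.44 in oe-pep and 8.95 in vehicle.

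**Figure D1:**
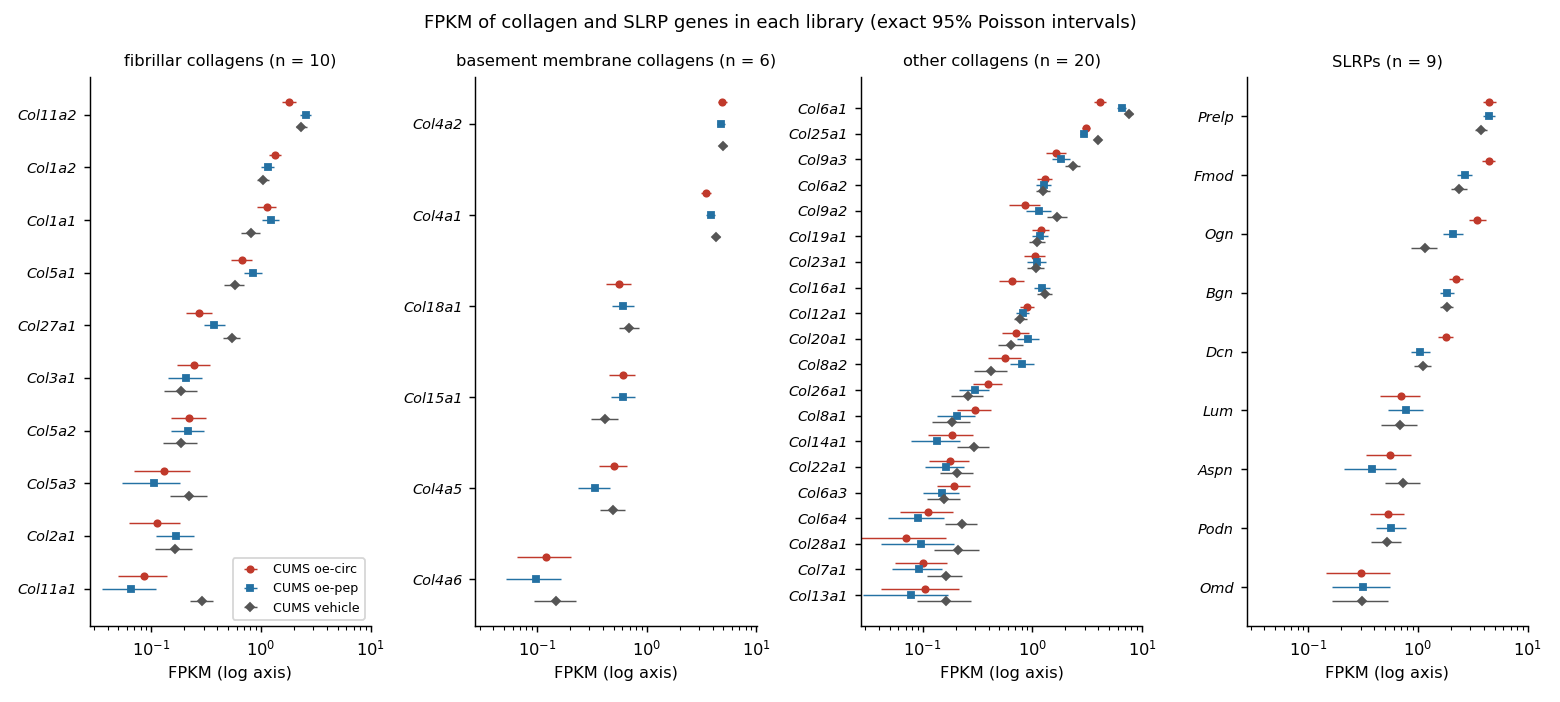
FPKM of each of the 45 members on a log axis, 1 panel per class, with the oe-circ (circle), oe-pep (square) and vehicle (diamond) libraries drawn one above the other and exact 95% Poisson intervals as lines. The intervals of the 3 libraries overlap for most genes, while the oe-circ points of Ogn, Fmod and Dcn lie to the right of vehicle, and those of Col11a1 and Col6a1 to the left of it.

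The 9 genes under the limit were Col9a1, Col4a3, Col4a4, Col6a5, Col6a6, Col10a1, Col17a1, Col24a1 and Kera. Kera, the keratocan of the cornea, had 0 reads in each library, which allows up to 3 reads in each as a one-sided limit. At the limit, Col6a5 (mean 0.0859 FPKM) and Col24a1 (0.0977) lay just outside, and Col13a1 (0.116) and Col7a1 (0.119) just inside.

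Differences were taken as log2(FPKM + 0.1), on which low genes appear less changed than they are, and a gene was counted when it differed by more than 2-fold there. In the oe-circ library against vehicle, 1 of 45 members, Ogn, was more than 2-fold higher, while 3.5% of all genes tested were so, and 1 member, Col11a1, was more than 2-fold lower, while 6.42% of all genes were. In oe-pep against vehicle, 0 members were higher by this measure (4.54% of all genes) and Col11a1 alone was lower (4.93%). Col11a1 reached the limit on mean FPKM only through its vehicle value. In oe-circ against oe-pep, 0 members were more than 2-fold higher (4.31% of all genes) and 0 lower (6.26%). Among protein-coding genes alone, 0.994% were higher and 2.07% lower by this measure in oe-circ against vehicle, and 1.27% and 1.26% in oe-pep against vehicle. Counts of 0 or 1 among 45 do not set the collagens and SLRPs apart from either background. The median difference of the members was −0.02 for oe-circ and 0.01 for oe-pep against vehicle, and 0.03 for oe-circ against oe-pep, beside −0.00, −0.00 and 0 over all genes tested. The comparisons against vehicle share the vehicle library, so a low or high value there enters both.

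The 4 classes had different medians around this even centre. The SLRPs had a median difference of 0.25 in oe-circ and 0.12 in oe-pep against vehicle, with 7 of 9 members above 0 in each. The other collagens had −0.23 in oe-circ and −0.15 in oe-pep, with 8 of 20 above 0 in each. Basement membrane members had −0.10 and −0.16, and fibrillar members −0.07 and 0.11, for oe-circ and oe-pep. Over all genes tested, 48.3% were above 0 in oe-circ and 49% in oe-pep against vehicle. Without Ogn and Fmod, a choice made after their values were seen, the SLRP median was 0.03 in oe-circ and 0.02 in oe-pep. Both genes lay above the class median in each comparison, so leaving them out could not raise it.

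**Figure D2:**
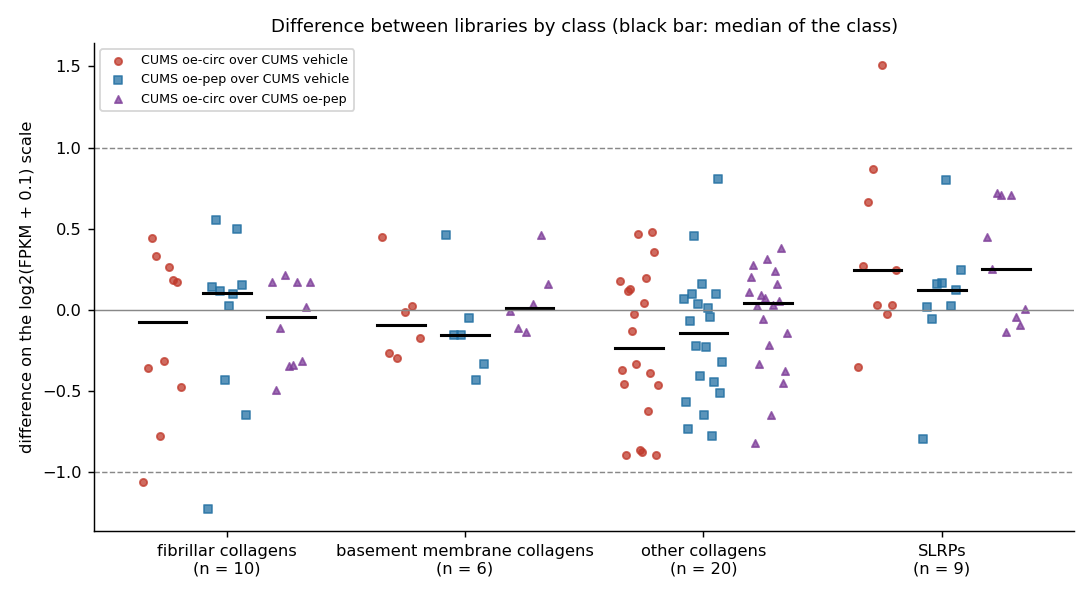
Difference on the log2(FPKM + 0.1) scale of each member by class, for oe-circ over vehicle (circles), oe-pep over vehicle (squares) and oe-circ over oe-pep (triangles), with a black bar at each class median and dashed lines at 2-fold. Nearly all points lie within the dashed lines; Ogn (1.51) stands above them, and Col11a1 (−1.06 in oe-circ and −1.23 in oe-pep) below.

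A measure that takes the reads into account was added after the values were seen, namely whether the 95% interval of the ratio of reads excluded 1. By it, 5 of 45 members (11.1%) were higher in oe-circ than in vehicle, beside 12.8% of all genes tested, and 11 (24.4%) were lower, beside 12.3%. The 5 higher genes were all fibrillar collagens or SLRPs (Col1a1, Col1a2, Dcn, Fmod and Ogn), and the 11 lower ones were all collagens. In oe-pep against vehicle, 5 (11.1%) were higher, beside 11.7%, and 9 (20%) were lower, beside 11.7%. The limit on mean FPKM bears on the lower counts. Of the members, 6 were under 0.1 FPKM in at least 1 library, and each of these was highest in vehicle. Among them, Col11a1, Col28a1 and Col6a4 counted as lower in oe-circ, and Col11a1 and Col6a4 in oe-pep. Col11a1 and Col28a1 reached the limit only through vehicle. The same limit applied to all genes tested. In oe-circ against oe-pep, 3 (6.67%) were higher, namely Dcn, Fmod and Ogn, beside 13.5%, and 3 were lower, namely Col11a2, Col16a1 and Col6a1, beside 12.7%.

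Of the fibrillar genes, type I collagen was higher in both overexpression libraries for 1 of its 2 chains. Col1a1, which encodes the more frequent chain of type I collagen, had 1.13 FPKM in oe-circ (108 reads), 1.23 in oe-pep (135 reads) and 0.807 in vehicle (98 reads). This was 1.40 times vehicle in oe-circ (interval 1.06 to 1.86) and 1.52 times in oe-pep (1.16 to 2.00). Its partner chain Col1a2 had 1.35, 1.15 and 1.05 FPKM in oe-circ, oe-pep and vehicle, or 1.28 times vehicle in oe-circ (1.07 to 1.54) and 1.09 times in oe-pep (0.909 to 1.31). Both chains were thus above vehicle beyond counting error in oe-circ, and Col1a1 alone in oe-pep. Col5a1, a chain of type V collagen, which helps to start type I fibrils, had 0.664 FPKM in oe-circ, 0.851 in oe-pep and 0.573 in vehicle, with a ratio whose interval excluded 1 only in oe-pep (1.49, 1.12 to 1.97). Col3a1 and Col5a2, which lie next to each other on chromosome 1, had 31 to 35 reads in each library and ratios to vehicle of 1.11 to 1.31. The ependymal, choroid plexus, oligodendrocyte and blood marker sums were also higher in oe-pep. Their part in the oe-pep values of Col1a1 and Col5a1 was not tested.

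The remaining fibrillar genes were below the vehicle level in oe-circ. Col11a1 and Col11a2 encode chains of type XI collagen, best known from cartilage fibrils. Col11a1 had 0.0863 FPKM in oe-circ (16 reads), 0.0656 in oe-pep (14 reads) and 0.288 in vehicle (68 reads). Both overexpression values were under 0.1 FPKM, so Col11a1 is a member only through the library where it was high. Its being counted as lower therefore follows in part from the limit. The vehicle library stood above both others, and the ratio to vehicle was 0.299 in oe-circ (0.162 to 0.522) and 0.228 in oe-pep (0.118 to 0.408). Basal forebrain and septal markers were lower in the same libraries (8 of 8 more than 2-fold lower in oe-circ and 4 of 8 in oe-pep, none at 0 in any library), and their part in the Col11a1 difference was not tested. With a pseudocount of 1 in place of 0.1, Col11a1 passed 2-fold in neither comparison.

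Col11a2 behaved differently from Col11a1, with 1.79 FPKM in oe-circ, 2.57 in oe-pep and 2.33 in vehicle. It was lower only in oe-circ, at 0.770 times vehicle (0.636 to 0.931) and 0.697 times oe-pep (0.575 to 0.842). Col27a1, a fibrillar collagen of cartilage, which is named after its values were seen, had 52 reads in oe-circ, 82 in oe-pep and 131 in vehicle. Its ratio to vehicle was 0.505 (0.359 to 0.701) in oe-circ and 0.692 (0.518 to 0.919) in oe-pep. The low genes Col2a1 and Col5a3 had 12 to 28 reads per library, and their intervals included 1 except for Col5a3 in oe-pep (0.474, 0.219 to 0.962). Split after their values were seen, the genes of types I, III and V without Col5a3 had medians of 0.27 in oe-circ and 0.15 in oe-pep against vehicle, and the other 5 fibrillar genes −0.48 and −0.44, so the median of the whole class describes neither.

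The SLRPs held the largest increase among the members. Ogn, which encodes osteoglycin, also called mimecan, had 3.48 FPKM in oe-circ (130 reads), 2.09 in oe-pep (90 reads) and 1.16 in vehicle (55 reads). The 3 libraries were in descending order with intervals of 2.91 to 4.13 in oe-circ, 1.68 to 2.57 in oe-pep and 0.872 to 1.51 in vehicle, which did not overlap. Ogn was 3.01 times vehicle in oe-circ (2.18 to 4.20), 1.81 times vehicle in oe-pep (1.28 to 2.58) and 1.66 times oe-pep in oe-circ (1.26 to 2.20).

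Fmod and Dcn were higher in oe-circ but not detectably in oe-pep. Fmod, the fibromodulin gene, whose product binds fibrillar collagen and limits fibril thickness, had 4.43 FPKM in oe-circ (213 reads), 2.67 in oe-pep (148 reads) and 2.39 in vehicle (146 reads). The ratio to vehicle was 1.86 in oe-circ (1.5 to 2.31) and 1.12 in oe-pep (0.885 to 1.42). Dcn, which encodes decorin, a binder of type I collagen and of TGF-β, had 1.80 FPKM in oe-circ (153 reads), 1.05 in oe-pep (103 reads) and 1.10 in vehicle (119 reads). Its ratio to vehicle was 1.64 in oe-circ (1.28 to 2.1) and 0.956 in oe-pep (0.727 to 1.26). For both genes the oe-circ library was also above oe-pep, by 1.66 times for Fmod (1.34 to 2.06) and 1.71 times for Dcn (1.32 to 2.22).

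The other SLRPs lay closer to vehicle. Prelp, whose product anchors basement membranes to connective tissue, had 4.49 FPKM in oe-circ, 4.48 in oe-pep and 3.77 in vehicle, and both ratios to vehicle were 1.19 with intervals that just reached 1 (0.993 to 1.43 in oe-circ and 0.997 to 1.42 in oe-pep). Bgn, encoding biglycan, had 2.23, 1.86 and 1.83 FPKM in oe-circ, oe-pep and vehicle, or 1.22 times vehicle in oe-circ (0.996 to 1.49) and 1.01 times in oe-pep (0.829 to 1.24). Lum, Podn and Omd, which encode lumican, podocan and osteomodulin, had 10 to 41 reads in a library and ratios to vehicle of 0.978 to 1.14. Aspn, the asporin gene, was the SLRP with the lowest ratio, with 19 reads in oe-circ, 15 in oe-pep and 32 in vehicle and a ratio of 0.518 in oe-pep (0.261 to 0.985).

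Markers of meningeal fibroblasts were higher in oe-circ than in vehicle, as were Ogn, Fmod, Dcn and both type I chains. Of 18 such markers, which exclude collagens and SLRPs, 17 were above 0 in oe-circ against vehicle. More than 2-fold higher were 5 (Slc13a4, Slc47a1, Crabp2, Foxc2 and Twist1), beside 3.5% of all genes tested, and none was lower by that measure. In oe-pep, 12 of 18 were above 0 and 0 passed 2-fold. Their summed level was 47.4 FPKM in oe-circ, 34.2 in oe-pep and 28.8 in vehicle, the same order as for Ogn, and no marker was at 0 in any library. The sums of the cortical excitatory markers (448, 402 and 371 FPKM) and of the nearly level mural markers (83.5, 82.0 and 81.3 FPKM) had this order too. Mgp, the matrix Gla protein gene and the highest of the list, was 1.96 times vehicle in oe-circ (1.58 to 2.44) and 1.42 times in oe-pep (1.14 to 1.78). The part of meningeal tissue, or of the cells of these other lists, in the SLRP and type I collagen differences was not tested.

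**Figure D3:**
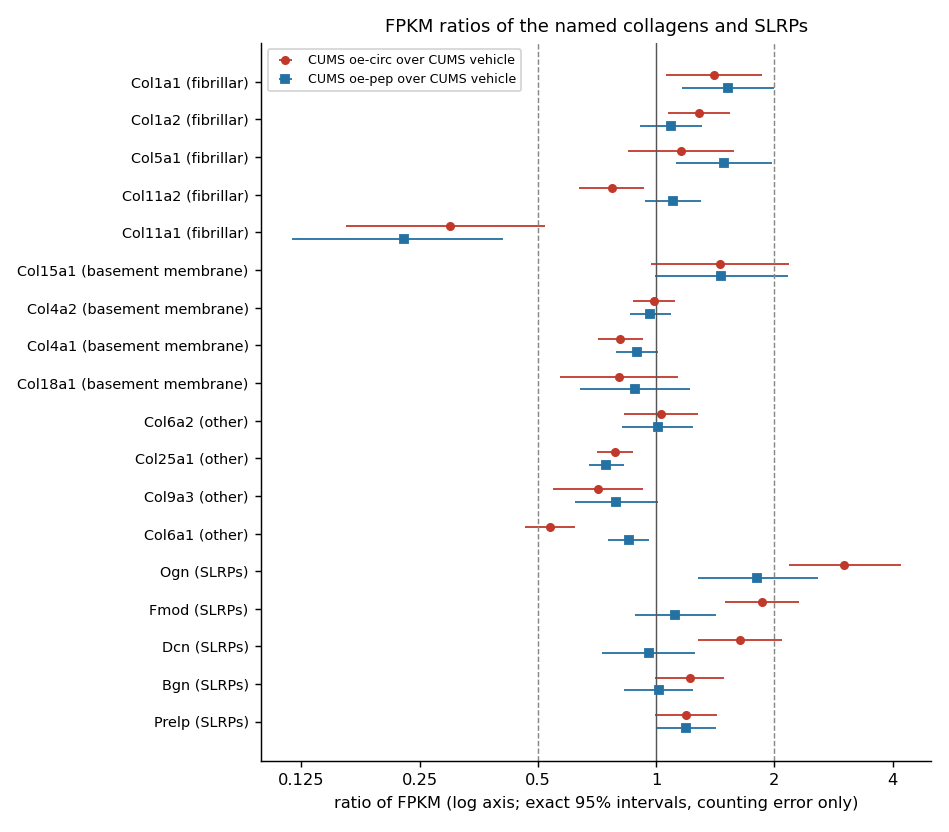
Ratio of FPKM to vehicle on a log axis for the 18 members given in full, for oe-circ (circles) and oe-pep (squares), with exact 95% intervals that cover counting error only; the solid line marks 1 and the dashed lines 0.5 and 2. Ogn, Fmod and Dcn lie to the right in oe-circ, Col11a1 far to the left in both, and Col4a2 and Col6a2 at the line.

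Basement membrane collagens were nearly even. Col4a2, the partner of Col4a1 in the common type IV collagen of vessels, had 4.90 FPKM in oe-circ, 4.79 in oe-pep and 4.96 in vehicle, or 0.989 times vehicle in oe-circ (0.875 to 1.12) and 0.967 times in oe-pep (0.859 to 1.09). Col4a1 had 3.47 FPKM in oe-circ (377 reads), 3.83 in oe-pep (479 reads) and 4.29 in vehicle (592 reads), and was lower in oe-circ at 0.810 times vehicle (0.710 to 0.923). It was the only basement membrane member whose interval excluded 1 in either comparison against vehicle. Col15a1 and Col18a1 encode collagens of the basement membrane zone that carry sugar chains, and the endostatin fragment comes from Col18a1. Col15a1 had 0.606 FPKM in oe-circ, 0.611 in oe-pep and 0.417 in vehicle, or 1.45 times vehicle in oe-circ (0.973 to 2.18) and 1.47 times in oe-pep (0.996 to 2.17). Col18a1 had 0.558 FPKM in oe-circ, 0.612 in oe-pep and 0.693 in vehicle, with intervals of the ratios to vehicle that included 1. Col4a5 and Col4a6, neighbours on the X chromosome, had ratios of 0.653 to 1.02 to vehicle, and their intervals included 1.

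The summed markers of the vessel wall were nearly level. The 12 endothelial markers summed to 138 FPKM in oe-circ, 137 in oe-pep and 138 in vehicle, and the 13 mural markers to 83.5, 82.0 and 81.3 FPKM. None of these markers was at 0 in any library, and 0 of either list passed 2-fold against vehicle in oe-circ or oe-pep. Between oe-circ and oe-pep 1 mural marker did, Tagln, a smooth muscle gene with 1 read in oe-circ, 12 in oe-pep and 5 in vehicle. The 15 laminin, nidogen, perlecan and agrin genes that share the basement membrane with type IV collagen also included 0 genes past 2-fold, with medians of −0.04 in oe-circ and −0.04 in oe-pep.

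Type VI is the beaded filament collagen, and its chains differed unequally. Col6a1 had 4.13 FPKM in oe-circ (263 reads), 6.53 in oe-pep (479 reads) and 7.67 in vehicle (622 reads). It was 0.538 times vehicle in oe-circ (0.464 to 0.622), 0.851 times in oe-pep (0.754 to 0.960) and 0.632 times oe-pep in oe-circ (0.542 to 0.736). Col6a2, a chain of the same protein, stayed level, with 1.30, 1.27 and 1.26 FPKM in oe-circ, oe-pep and vehicle, or 1.03 times vehicle in oe-circ (0.829 to 1.28) and 1.01 times in oe-pep (0.818 to 1.24). Col6a3, a much longer chain of the same protein, had 34 reads in oe-circ, 30 in oe-pep and 35 in vehicle. Col6a4, another type VI gene, named after its values were seen, had 14 reads in oe-circ, 13 in oe-pep and 36 in vehicle. Its ratio to vehicle was 0.495 in oe-circ (0.246 to 0.940) and 0.399 in oe-pep (0.194 to 0.771). The Col6a1 to Col6a2 ratio of FPKM was accordingly 3.18 in oe-circ (2.60 to 3.91), 5.14 in oe-pep (4.32 to 6.15) and 6.09 in vehicle (5.18 to 7.20), although the genes lie 85161 bases apart on chromosome 10. The striatal markers, which summed to 195 FPKM in oe-circ, 510 in oe-pep and 617 in vehicle, were in the same order as Col6a1. So were the sums of the basal forebrain and septal markers (5.07, 10.4 and 22.0 FPKM) and of the 7 interneuron markers (516, 529 and 599 FPKM). The part of these lists in the Col6a1 difference was not tested.

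**Figure D4:**
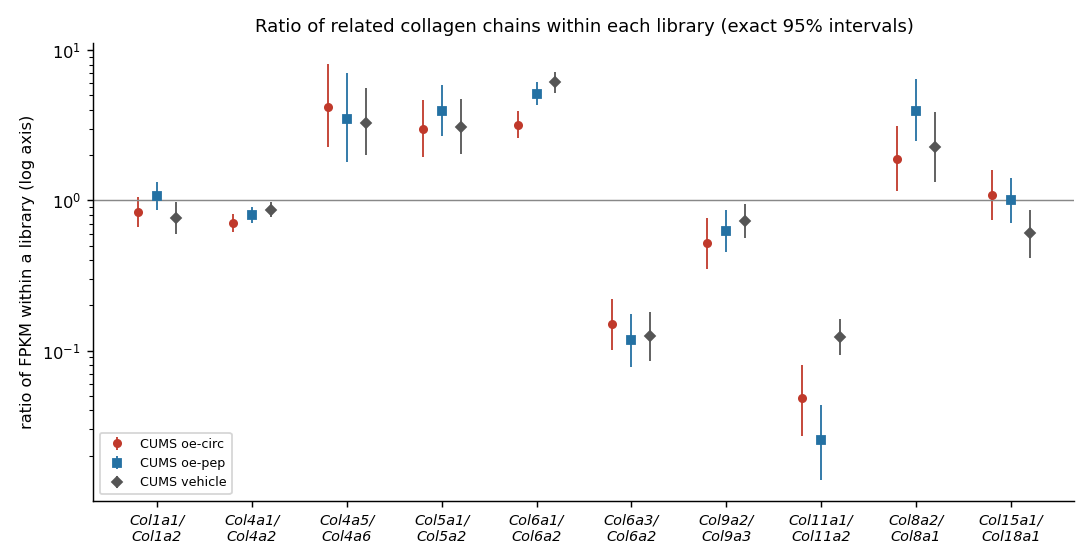
Ratio of FPKM between 2 related chains within each library on a log axis, for oe-circ (circles), oe-pep (squares) and vehicle (diamonds), with exact 95% intervals. The ratio of Col6a1 to Col6a2 is lower in oe-circ (3.18) than in oe-pep (5.14) and vehicle (6.09), and that of Col11a1 to Col11a2 is lower in oe-circ (0.0482) and oe-pep (0.0255) than in vehicle (0.124).

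The other pairs varied in how far they kept together. The Col8a2 to Col8a1 ratio was 1.90 in oe-circ (1.16 to 3.12), 3.94 in oe-pep (2.47 to 6.45) and 2.26 in vehicle (1.33 to 3.89), and the Col15a1 to Col18a1 ratio 1.09 (0.738 to 1.6), 0.998 (0.703 to 1.42) and 0.602 (0.416 to 0.862) in the same 3 libraries. The Col4a1 to Col4a2 ratio was 0.708 in oe-circ (0.617 to 0.813), 0.800 in oe-pep (0.706 to 0.907) and 0.865 in vehicle (0.771 to 0.970). The Col1a1 to Col1a2 ratio was 0.838 in oe-circ (0.662 to 1.06), 1.07 in oe-pep (0.859 to 1.33) and 0.767 in vehicle (0.600 to 0.973). The intervals of neighbouring values overlapped in all 4 pairs. Genes side by side on a chromosome had unlike ratios in several cases. Aspn, Omd and Ogn lie in a row on chromosome 13 with gaps of 14896 and 15223 bases, and their ratios to vehicle in oe-circ were 0.755, 0.978 and 3.01. Dcn and Lum lie 46984 bases apart on chromosome 10 and had ratios of 1.64 and 1.03 in oe-circ, and Prelp and Fmod, 115839 bases apart on chromosome 1, had 1.19 and 1.86.

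FACITs are collagens that sit on the surface of fibrils, and several were lower. Of the 8 FACIT members, 3 were above 0 in oe-circ and 3 in oe-pep against vehicle, with medians of −0.29 and −0.15, beside 48.3% and 49% of all genes above 0. Col9a3, a chain of type IX collagen, had 1.66 FPKM in oe-circ (93 reads), 1.84 in oe-pep (119 reads) and 2.33 in vehicle (166 reads), or 0.713 times vehicle in oe-circ (0.547 to 0.924) and 0.792 times in oe-pep (0.621 to 1.01). Its partner Col9a2, named like Col16a1 after the values were seen, had 39 reads in oe-circ, 60 in oe-pep and 97 in vehicle, and a ratio of 0.511 in oe-circ (0.343 to 0.749). Col9a2 and Col9a3 were therefore lowest in oe-circ, but not detectably below oe-pep. Their ratios of oe-circ to oe-pep were 0.748 (0.487 to 1.14) and 0.900 (0.678 to 1.19). Another type IX gene, Col9a1, was under the FPKM limit. Col16a1, which encodes type XVI collagen, had 0.652 FPKM in oe-circ (64 reads), 1.23 in oe-pep (139 reads) and 1.30 in vehicle (162 reads). It was 0.503 times vehicle in oe-circ (0.370 to 0.675) and 0.948 times in oe-pep (0.750 to 1.20). Col12a1 and Col19a1, with 120 to 219 reads in a library, had ratios to vehicle of 1.05 to 1.15. Outside oe-circ, Col20a1 was higher in oe-pep (79 reads, against 61 in vehicle; 1.43, 1.01 to 2.03) and Col14a1 lower (16 reads, against 38 in vehicle; 0.465, 0.242 to 0.855).

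Col25a1 is a transmembrane collagen made by neurons, and its shed part was found in the amyloid plaques of Alzheimer's disease. It held the most reads of all members and had 3.11 FPKM in oe-circ (585 reads), 2.95 in oe-pep (639 reads) and 3.95 in vehicle (946 reads). Both overexpression libraries were below vehicle, at 0.787 times in oe-circ (0.708 to 0.873) and 0.746 times in oe-pep (0.674 to 0.826), and they did not differ detectably from each other (1.05, 0.940 to 1.18). Of the neuronal marker sums, those of interneurons (516, 529 and 599 FPKM in oe-circ, oe-pep and vehicle), striatum, and basal forebrain and septum were also below vehicle in both. The cortical excitatory sum was above vehicle in both (448, 402 and 371 FPKM). The part of these lists in the Col25a1 difference was not tested. Another transmembrane collagen gene, Col23a1, had 1.05 FPKM in oe-circ, 1.10 in oe-pep and 1.07 in vehicle.

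Among the short chain and remaining collagens, Col8a2, which encodes a chain of type VIII collagen, a short chain network collagen of the cornea and of vessels, was higher in oe-pep. It had 37 reads in oe-circ, 61 in oe-pep and 35 in vehicle, and its ratio to vehicle was 1.34 (0.824 to 2.20) in oe-circ and 1.93 (1.25 to 3.01) in oe-pep. The part of the ependymal, choroid plexus, oligodendrocyte and blood markers in this was not tested either. Its partner Col8a1 had 34, 27 and 27 reads in oe-circ, oe-pep and vehicle. The members with the fewest reads, Col13a1 and Col28a1, had 5 to 19 reads in a library, so only large differences were detectable for them.

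Genes that act on collagens were mostly even as well. Of 28 genes for collagen synthesis and crosslinking, 0 were more than 2-fold higher in oe-circ or oe-pep than in vehicle, and 1 was lower in oe-circ, namely Adamts3, which encodes a protease that trims procollagen, at 0.436 times vehicle in oe-circ (0.355 to 0.534) and 0.502 times in oe-pep (0.416 to 0.602), just inside 2-fold on the log2 scale. The medians of this list were −0.04 in oe-circ and 0.01 in oe-pep. Sparc, encoding a collagen-binding protein and the highest of the list, was 0.682 times vehicle in oe-circ (0.647 to 0.719) and 0.847 times in oe-pep (0.808 to 0.888). Of 7 collagen receptor genes, 0 passed 2-fold, and the medians were 0.05 in oe-circ and 0.23 in oe-pep. Of 10 matrix proteases and their inhibitors, 0 passed 2-fold against vehicle, with medians of −0.16 in oe-circ and −0.04 in oe-pep. Other genes of leucine-rich matrix proteins went the opposite way from Ogn and Fmod. Of these, 0 of 6 were above 0 in oe-circ (median −0.49) and 1 of 6 in oe-pep (median −0.36), with 2 past 2-fold in oe-pep (Optc and Chad), each with at most 17 reads in oe-pep and vehicle.

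**Figure D5:**
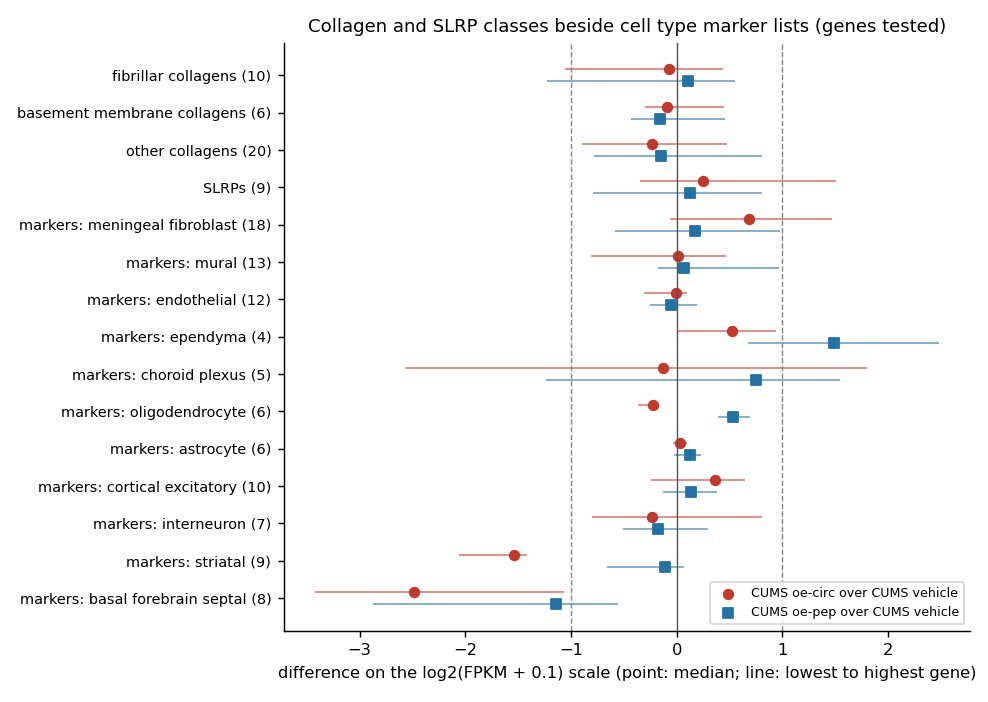
Median (point) and lowest to highest gene (line) of the difference from vehicle on the log2(FPKM + 0.1) scale, for the 4 classes of members and for cell type marker lists, in oe-circ (circles) and oe-pep (squares), with the number of genes in parentheses. Meningeal fibroblast markers lie to the right in oe-circ (median 0.68), endothelial and mural markers at 0, and striatal (−1.54) and basal forebrain and septal markers (−2.49) to the left.

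The sequence before the transcription start was read from RefSeq (GRCm38.p6, equal to mm10 in coordinates) for the members with the largest difference in each direction, as 250 bases that end just before the start. Capitals mark matches, on either strand, to the letters of the TATA box, TATAAA, of the CCAAT box and of the GC box, GGGCGG. The Ogn window is chr13:49607765-49608014 and that of Col11a1 chr3:114030290-114030539, both on the plus strand.
Ogn: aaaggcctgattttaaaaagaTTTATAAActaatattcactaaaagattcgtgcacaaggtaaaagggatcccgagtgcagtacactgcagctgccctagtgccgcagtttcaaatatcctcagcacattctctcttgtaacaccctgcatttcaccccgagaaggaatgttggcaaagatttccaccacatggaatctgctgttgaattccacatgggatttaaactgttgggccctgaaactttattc
Col11a1: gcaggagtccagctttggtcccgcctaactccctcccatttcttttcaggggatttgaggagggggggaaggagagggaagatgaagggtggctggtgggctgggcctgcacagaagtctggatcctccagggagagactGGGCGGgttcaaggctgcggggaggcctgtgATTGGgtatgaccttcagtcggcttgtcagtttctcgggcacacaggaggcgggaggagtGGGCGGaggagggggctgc

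The Ogn window has 42% GC and overlapping TATAAA matches on both strands that begin 229 and 227 bases before the start. The Col11a1 window has 62.4% GC, with GGGCGG 110 and 19 bases before the start and CCAAT on the reverse strand 79 bases before it. Of the 45 members, 35 matched a promoter in this set, 3 of them with 2 windows, of which the one with the lower coordinate was counted. GGGCGG was present in 19 of these, or 54.3%, beside 32.7% of all 32817 promoters of this length, with 6 of 7 fibrillar members and 1 of 7 SLRPs among them, or 21 genes and 2 of 7 SLRPs when either window counts. TATAAA was present in 5 of 35 members and 12.4% of all promoters, and CCAAT in 12 of 35 and 33.8%. The windows of the 35 members had a median GC content of 57.6%, beside 52.4% over all promoters, and GGGCGG consists of G and C alone. The fibrillar genes Col1a1, Col2a1 and Col5a2 were among the members without a promoter in this set. A match is a description of these letters and not of a site in use.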

How the data were processed

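RNA of PrL tissue was sequenced from 1 library per group with a stranded mRNA kit. Per the submitters' processing notes, cutadapt 2.5, HISAT2 2.1.0 and featureCounts 1.6.3 were used with mm10. The deposited table holds, for 54532 genes, the length and the FPKM in each library. The strand setting of the counting is not given in the sources used here. Groups were taken from the labels.

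In each library the product of FPKM and length was a whole number of steps, to within 7.74e-09 reads, which gave the reads behind each value. No count model was fitted, because each group had 1 library. Differences used log2(FPKM + 0.1) for genes with a mean of at least 0.1 FPKM, with 2-fold as the size, which the study's methods also name. Ratios have exact conditional binomial (Clopper-Pearson) and FPKM exact Poisson intervals, both at 95%. A library with 0 reads is described by a one-sided limit of 3 reads, which entered no calculation. The steps were tested on simulated data.

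The members, classes, 5 lists of related genes and 14 lists of cell type markers were chosen with earlier results of these data known. Full values are given for Col1a1, Col1a2, Dcn and Ogn, for the 4 members of each class with the highest mean FPKM, and for members past 2-fold with a mean of at least 20 reads. Of the members, 12 share some exon bases with another gene, 0 of them over 10% (Prelp has the most, 9.68%, with Gm15851 on the opposite strand). Alternatives were pseudocounts of 0.01 and 1, median ratio scaling, other filters, and means in place of medians. Computations used scipy 1.17.1, pandas 2.3.3 and numpy 2.4.6 under Python 3.11.15, and figures matplotlib 3.10.9.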

Additional observations from a re-analysis of the deposited data

How the results depend on the processing

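No replicate could be left out, since each group had 1 library. No paired analysis was possible because the groups share no replicates. Median ratio scaling, with factors from 0.999 in oe-circ to 1.002 in vehicle, changed no result. A pseudocount cannot change the direction of a gene's difference, and so slight a scaling hardly can. These alternatives therefore did not test direction. The number of members more than 2-fold lower than vehicle was 2 in oe-circ and 5 in oe-pep with a pseudocount of 0.01, and 0 in both with a pseudocount of 1 or a mean of at least 1 FPKM. With a pseudocount of 1, the Col11a1 difference in oe-pep was −0.27, and the other collagens had a median of −0.054 in oe-circ. When the interval of the ratio of reads had to exclude 1, a measure chosen after seeing the data, 5 members were higher and 11 lower in oe-circ than in vehicle, 5 higher and 9 lower in oe-pep than in vehicle, and 3 higher and 3 lower in oe-circ than in oe-pep.

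The class medians moved with the genes included. With a mean of at least 1 FPKM the medians in oe-circ against vehicle were 0.33 for fibrillar collagens (3 genes), −0.40 for other collagens (8 genes) and 0.66 for SLRPs (5 genes), and those in oe-circ against oe-pep were −0.10 for other collagens and 0.71 for SLRPs. With no filter they were −0.32 for fibrillar and −0.13 for other collagens in oe-circ against vehicle, and 0.17 and −0.077 when 20 reads on average were required, so the fibrillar median had no stable sign. Means in place of medians gave 0.36 for SLRPs in oe-circ and −0.074 for fibrillar collagens in oe-pep. The splits chosen after seeing the data gave 0.27 in oe-circ for fibrillar types I, III and V without Col5a3, −0.48, −0.44 and −0.34 for the remaining fibrillar genes in oe-circ against vehicle, oe-pep against vehicle and oe-circ against oe-pep, and 0.032, 0.022 and 0.0034 for SLRPs without Ogn and Fmod. The shares of all genes past 2-fold were smaller among protein-coding genes alone, at 1.18% higher and 2.1% lower in oe-circ against oe-pep. With 1 library per group, the variation between mice is not known, and depth leaves moderate differences undetectable for members with few reads.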
